A study of Mus musculus with 19 samples.

Results

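The interaction of MK-801 and c-MSST was read in the left prelimbic cortex of mice as the difference between 2 differences per gene: SCZ+c-MSST over SCZ, minus Control+c-MSST over Control, on the log2 scale. All 19 RNA sequencing libraries of the series enter it, so its members are 19 of 19 libraries, and 16417 genes were tested. A positive interaction says that the ratio with c-MSST to without it was higher in MK-801 mice than in saline mice, whichever of the 2 ratios moved. The 4 SCZ+c-MSST and 4 SCZ libraries came from mice given MK-801 at 0.2 mg/kg, injected into the peritoneum each day for 2 weeks, and the 5 Control+c-MSST and 6 Control libraries from mice given saline in the same way. For c-MSST, ferumoxytol, an iron oxide nanoparticle, was placed once in the left prelimbic cortex by stereotactic surgery and a pulsed magnetic field was applied to the animal. Tissue was taken on day 3 after surgery. The labels do not say whether the SCZ and Control mice without c-MSST had surgery, so the effects of surgery, particle and field cannot be told apart here. They give no strain, sex, age or batch, and nothing says how the libraries of a group relate to litters or days, so p-values measure only the spread between these samples.

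As background, MK-801 blocks the channel of the NMDA receptor, a glutamate receptor of excitatory synapses, and is used in rodents to model aspects of schizophrenia. Calcium that enters through such receptors starts signalling to the nucleus, where the factors CREB and SRF switch on immediate early genes within minutes of neuronal activity. Corticosterone, the stress hormone of rodents, acts on a partly overlapping set of genes through the glucocorticoid receptor, which binds DNA directly.

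Library totals ran from 66828543 to 75090222 counts in SCZ+c-MSST, 65498768 to 82416746 in SCZ, 60577337 to 72866386 in Control+c-MSST and 50140626 to 66818266 in Control. Values below are CPM, the count as a share of the TMM-normalized library size in the usual scale, which does not correct for gene length, so levels are compared only within a gene. Fold changes and effects of c-MSST are on the log2 scale throughout, like the interaction. The cortical neuron markers Slc17a7 (at least 859 CPM), Cux2 (at least 132 CPM), Fezf2 (at least 16.8 CPM) and Tbr1 (at least 144 CPM) were present in every library. Some libraries also had high levels of markers of neighbouring tissue, and what raised them was not tested. Zic1, a transcription factor of the septum, reached 41.4 to 51.6 CPM in 3 SCZ libraries (replicates 2, 3, 5) and 34.5 to 37.3 CPM in 3 Control libraries (replicates 2, 4, 5). It did not exceed 16.9 CPM elsewhere. Ttr, made in the choroid plexus, reached 1607 CPM in Control replicate 2. The summed level of 14 striatal neuron markers was 1387 to 3212 CPM in SCZ+c-MSST, 2050 to 2734 CPM in SCZ, 441 to 2070 CPM in Control+c-MSST and 319 to 2478 CPM in Control. Their median log2 fold change was 1.14 for SCZ over Control, and their median interaction was 0.01. The 10 septal and medial forebrain markers had a median interaction of -0.51. Their median log2 fold change was -0.91 for c-MSST in MK-801 mice and -0.75 in saline mice. At an unadjusted p under 0.05, 5 of them were lower in MK-801 mice and 4 in saline mice, beside 3.7% and 8.7% of all genes. The summed level of 8 blood haemoglobin genes was 334 to 1380 CPM in SCZ+c-MSST, 225 to 268 CPM in SCZ, 219 to 329 CPM in Control+c-MSST and 156 to 276 CPM in Control, so it was higher in every SCZ+c-MSST library than in any other.

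No gene passed an adjusted p of 0.05 for the interaction (edgeR quasi-likelihood test with Benjamini-Hochberg adjustment, 0 of 16417 genes, 0% called). The smallest adjusted p was 0.242, shared by Hes5, Id3 and Zfp366. At an unadjusted p under 0.05 there were 640 genes with a positive interaction (3.9% of those tested) and 556 with a negative one (3.39%), together 1196 or 7.29%. DESeq2's Wald test called 40 genes on the same counts, 27 higher and 13 lower. They include 22 of the 24 genes of smallest edgeR p described below, all but Tmem64 and Kif26a, with a DESeq2 adjusted p of 0.000772 for Hes5, 0.00245 for Maff and 0.0358 for Cops2. Both tests used the same counts, so the shared genes are no independent support. The smallest DESeq2 adjusted p was 3.81e-10, for Pou3f4, at a log2 interaction of 25.3. The called genes H3c15 and Zfp992 had similarly extreme values, 23.1 and 18.5. The edgeR values, which did not pass, are the ones given with each gene. At an unadjusted p under 0.05, limma on the deposited FPKM values, as log2(FPKM + 1), had 158 higher and 1660 lower genes, with the median of all genes at -0.08. That alternative changed the values, the pseudocount and the test together, and which of them moved the split was not tested. The median interaction over all genes was 0.00, and the median standard error was 0.16, against 0.12 for SCZ+c-MSST over SCZ and 0.11 for Control+c-MSST over Control. All genes below are therefore given as values with their errors. "Higher" or "lower" at an unadjusted p is a count to be read against these shares, and no gene of the interaction is called changed.

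Most of the 1196 genes were on opposite sides of 0 in the 2 kinds of mice. In 1032 of them (86.3%) the fold change with c-MSST had one sign in MK-801 mice and the other in saline mice, against 42.3% of all genes tested. A large difference of 2 effects favours opposite signs by its construction, so this describes the genes and tests nothing. The effect in MK-801 mice was the larger of the 2 in 572 of the 1196 genes and that in saline mice in 624. An unadjusted p under 0.05 was reached by 421 of them in SCZ+c-MSST against SCZ (7.56% of all genes) and by 582 in Control+c-MSST against Control (16.6% of all genes). In 234 neither effect alone had an unadjusted p under 0.05. Across all genes, the 2 effects, which share no library, had a Pearson correlation of 0.18 and a Spearman correlation of 0.19, as a description over 16417 genes that are not independent.

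**Figure D1:**
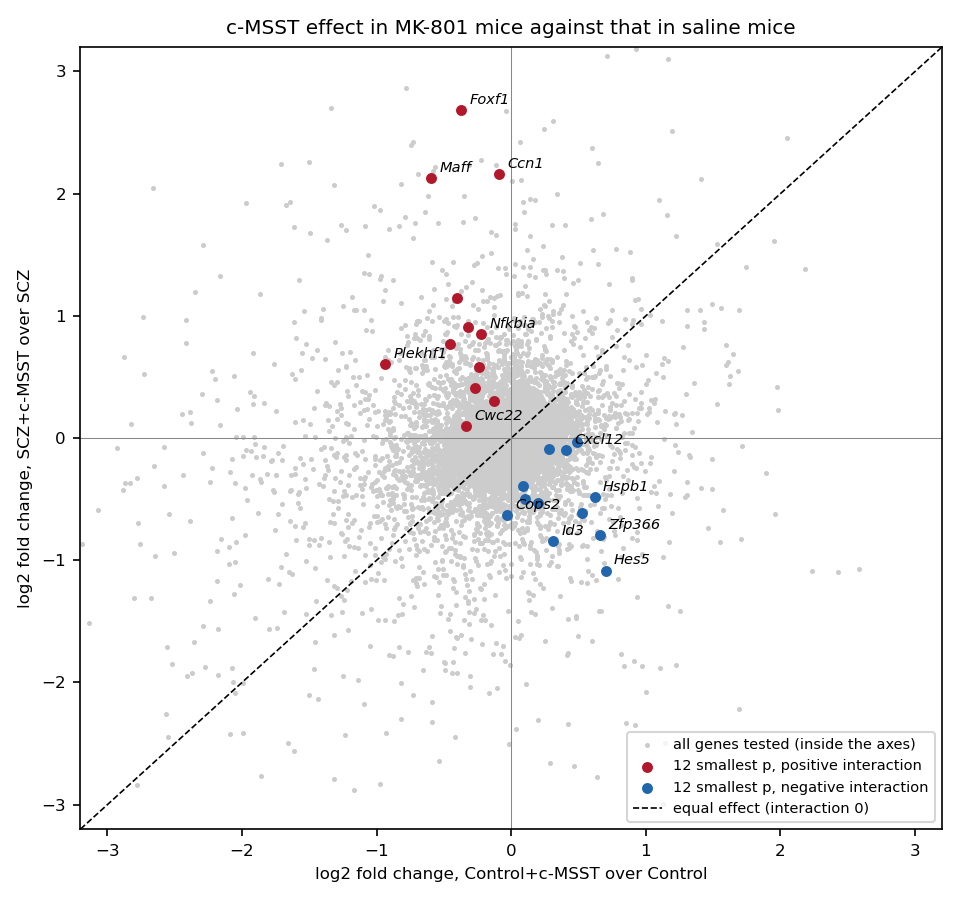
Log2 fold change of SCZ+c-MSST over SCZ (vertical axis) against that of Control+c-MSST over Control (horizontal axis), 1 point per gene, with the 12 genes of smallest interaction p in each direction in colour. Foxf1, Maff and Ccn1 lie high on the vertical axis and slightly left of 0, while Hes5, Zfp366 and Id3 lie below 0 on the vertical axis and right of 0 on the horizontal one.

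The largest positive interactions among the 12 smallest p-values belonged to Foxf1, Maff and Ccn1. Maff encodes a small Maf transcription factor that stress and growth signals induce. It stood at 8.14, 8.34, 6.47 and 7.74 CPM in SCZ+c-MSST, against 1.47, 2.25, 1.26 and 2.06 CPM in SCZ. In saline mice it stood at 3.75, 1.94, 4.40, 1.93 and 1.69 CPM in Control+c-MSST, and in Control its lowest, median and highest values were 1.75, 3.02 and 7.87 CPM. All SCZ+c-MSST libraries were thus above all SCZ libraries, while Control+c-MSST and Control overlapped and Control replicates 1 and 3 were as high as SCZ+c-MSST. The Maff interaction was 2.72 (SE 0.59, adjusted p = 0.365), made of 2.12 (SE 0.45) in MK-801 mice and -0.59 (SE 0.38) in saline mice.

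Ccn1, a secreted matrix protein made by activated vascular and mesenchymal cells, was also low in SCZ. Its levels were 6.84, 12.1, 15.9 and 13.0 CPM in SCZ+c-MSST, against 2.56, 2.44, 2.31 and 3.40 CPM in SCZ. They were 10.8, 2.92, 5.02, 7.46 and 4.53 CPM in Control+c-MSST, against 3.26 to 10.7 CPM (median 6.04) in Control. The SCZ libraries were a tight low group, and the others covered a wide range. The interaction of Ccn1 was 2.25 (SE 0.52, adjusted p = 0.365), and its effect was 2.16 (SE 0.40) in MK-801 mice and -0.09 (SE 0.33) in saline mice. Foxf1, a forkhead factor of mesenchyme, had 1.24, 2.80, 2.81 and 3.78 CPM in SCZ+c-MSST, against 0.165, 0.362, 0.394 and 0.720 CPM in SCZ. It had 0.533 to 1.53 CPM in Control+c-MSST and 0.445 to 1.98 CPM in Control, which overlapped, and its interaction was 3.05 (SE 0.70, adjusted p = 0.365).

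Among the others, Polr3e encodes a subunit of RNA polymerase III and had the smallest p in the positive direction. It stood at 48.9, 51.4, 48.6 and 50.6 CPM in SCZ+c-MSST, against 44.9, 39.0, 37.8 and 40.1 CPM in SCZ. It stood at 41.7, 41.8, 44.6, 43.6 and 45.1 CPM in Control+c-MSST, against 42.5 to 52.0 CPM (median 47.9) in Control. The 2 effects pointed apart, 0.30 (SE 0.07) in MK-801 mice and -0.13 (SE 0.06) in saline mice, and the interaction was 0.43 (SE 0.09, adjusted p = 0.347). Arrdc2, an arrestin domain protein, had 13.3, 13.0, 12.6 and 13.4 CPM in SCZ+c-MSST, against 11.4, 6.67, 6.39 and 6.25 CPM in SCZ. In saline mice Arrdc2 had 6.63 to 11.9 CPM (median 9.17) in Control+c-MSST, against 9.97 to 14.4 CPM (median 13.7) in Control. SCZ replicate 1, the only SCZ library with low Zic1, was the SCZ library nearest to the SCZ+c-MSST group for this gene. The Arrdc2 interaction was 1.22 (SE 0.26, adjusted p = 0.365).

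Nfkbia and Nfkbiz both encode proteins of the inhibitor family that binds NF-kB. Nfkbia stood at 22.1, 22.0, 26.5 and 29.6 CPM in SCZ+c-MSST, against 16.0, 13.3, 12.5 and 13.9 CPM in SCZ. It stood at 12.6 to 24.6 CPM (median 18.1) in Control+c-MSST and 16.1 to 25.7 CPM (median 22.4) in Control, with overlap. The interaction was 1.07 (SE 0.26) for Nfkbia and 0.68 (SE 0.16) for Nfkbiz. In the spliceosome gene Cwc22 the saline mice carried most of it. Cwc22 stood at 28.0 to 32.2 CPM in Control+c-MSST, wholly below 33.6 to 43.5 CPM in Control (fold change -0.33, SE 0.07, adjusted p = 0.0439), one of 54 genes called between these groups (0.329%), and it overlapped between 32.5 to 37.9 CPM in SCZ+c-MSST and 30.6 to 35.0 CPM in SCZ. Plekhf1, an endosomal protein that binds phosphoinositides, had -0.94 (SE 0.24) in saline mice and 0.61 (SE 0.28) in MK-801 mice, an interaction of 1.54 (SE 0.37). Of the remaining positive genes, the ubiquitin ligase Rnf125, the fucosyltransferase Fut2 and the small GTPase Arl4d had interactions of 1.54, 1.23 and 0.82, and in each the SCZ+c-MSST libraries were above the SCZ libraries while the saline groups overlapped. Adjusted p over these 12 genes ran from 0.347 to 0.386.

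**Figure D2:**
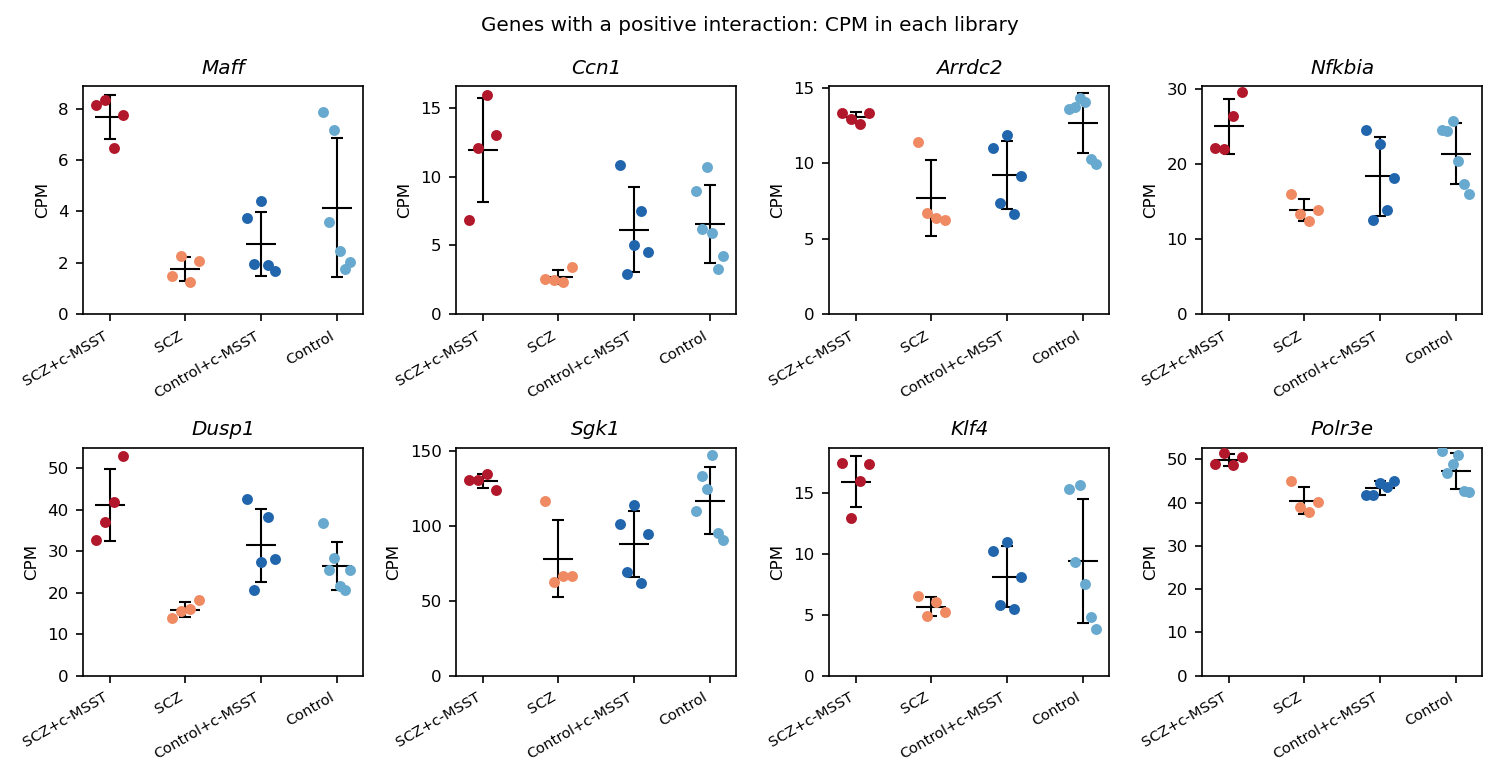
CPM of 8 genes with a positive interaction in each of the 19 libraries, by group, with the mean (long bar) and SD (whiskers). For Maff, Dusp1, Sgk1 and Klf4 every SCZ+c-MSST point is above every SCZ point, and the Control+c-MSST and Control points overlap.

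Among the 38 lists, immediate early genes had the most members with a positive interaction at an unadjusted p under 0.05. The lists and their members were chosen with earlier results of these data known. Counts of members set beside the shares of all genes are therefore descriptions and no independent tests. Of 30 tested members 26 were positive, 13 of them at an unadjusted p under 0.05 against 3.9% of all genes tested, and 1 (Npas4) was negative at that level. In SCZ+c-MSST against SCZ 12 members were higher and 1 lower at that level, beside 3.86% and 3.7% of all genes. In Control+c-MSST against Control 2 were higher and 1 lower, beside 7.86% and 8.7% of all genes. In SCZ against Control 1 was higher and 21 lower, beside 6.09% and 7.43% of all genes. The median interaction of the list was 0.51 against 0.00 over all genes, and none passed over all genes. The median log2 fold change of the list was 0.40 for c-MSST in MK-801 mice and 0.03 for c-MSST in saline mice. It was -0.51 for SCZ over Control, a comparison that shares libraries with both effects. With the striatal marker score as a covariate 11 members were at a positive interaction with an unadjusted p under 0.05, with the septal score 9, and 8 without Control replicates 2 and 3. On log2(FPKM + 1) there were 6. Leaving out 1 library at a time gave 9 to 15.

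Dusp1, a phosphatase that switches off MAP kinases, was the member of this list with the smallest p. It had 32.7, 36.9, 41.9 and 53.1 CPM in SCZ+c-MSST, against 13.8, 15.6, 16.0 and 18.2 CPM in SCZ. It had 42.6, 20.6, 27.3, 38.2 and 28.2 CPM in Control+c-MSST, against 20.6 to 36.8 CPM (median 25.5) in Control. Every SCZ library was below every library of the other groups. The interaction of Dusp1 was 1.12 (SE 0.28, adjusted p = 0.386), from 1.37 (SE 0.21, adjusted p = 0.0914) in MK-801 mice and 0.25 (SE 0.18) in saline mice.

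Btg2, an antiproliferative gene induced by activity, had 25.3, 32.4, 41.7 and 39.2 CPM in SCZ+c-MSST, against 9.50, 12.3, 12.9 and 15.6 CPM in SCZ. It had 14.3 to 34.2 CPM (median 19.7) in Control+c-MSST, against 13.8 to 28.2 CPM (median 21.1) in Control. Its interaction was 1.3 (SE 0.36, adjusted p = 0.446). Klf4 and Klf2 are Krüppel-like transcription factors. Klf4 had 13.0 to 17.5 CPM in SCZ+c-MSST, against 4.92 to 6.56 CPM in SCZ, with an interaction of 1.70 (SE 0.48). Klf2 had 13.2 to 17.2 CPM in SCZ+c-MSST, against 5.31 to 6.01 CPM in SCZ, with an interaction of 1.27 (SE 0.39). Control+c-MSST and Control overlapped for both factors, at 5.46 to 11.0 against 3.86 to 15.7 CPM for Klf4 and 6.17 to 15.1 against 5.47 to 14.1 CPM for Klf2.

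Nr4a1, an orphan nuclear receptor named here after its values were seen, had 58.6, 55.8, 79.0 and 72.4 CPM in SCZ+c-MSST, against 28.0, 34.2, 35.6 and 38.8 CPM in SCZ. In saline mice it had 41.8 to 88.3 CPM (median 70.1) in Control+c-MSST, against 41.0 to 84.1 CPM (median 61.6) in Control. Its interaction was 0.93 (SE 0.29, adjusted p = 0.528), from 0.96 in MK-801 mice and 0.03 in saline mice. Other members had smaller values. Homer1, a synaptic scaffold, and Egr1, a zinc finger factor, had interactions of 0.13 (SE 0.16) and 0.31 (SE 0.25). Fos, also named after its values were seen, had 0.91 with a wide error (SE 0.49), at 12.5 to 25.5 CPM in SCZ+c-MSST, 5.99 to 13.9 CPM in SCZ, 9.36 to 28.6 CPM in Control+c-MSST and 9.11 to 28.0 CPM in Control.

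Npas4, a factor that neurons switch on with calcium entry and that shapes inhibitory synapses, went the other way, and it was also named after its values were seen. It had 10.9, 6.95, 10.5 and 6.42 CPM in SCZ+c-MSST, against 8.82, 21.5, 29.2 and 33.0 CPM in SCZ. It had 8.76, 28.3, 16.4, 38.9 and 25.6 CPM in Control+c-MSST, against 9.79 to 26.4 CPM (median 13.2) in Control. SCZ replicate 1 and Control+c-MSST replicate 1 were as low as the SCZ+c-MSST group, and all groups overlapped. The interaction of Npas4 was -2.07 (SE 0.57, adjusted p = 0.446).

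Corticosteroid response genes followed with 14 of 16 tested members positive and a median of 0.39. At an unadjusted p under 0.05, 8 were positive and none negative, beside 3.9% and 3.39% of all genes. Dusp1 and Per1 stand on both this list and the one of immediate early genes. The median log2 fold change of the corticosteroid list was 0.27 for c-MSST in MK-801 mice and -0.08 for c-MSST in saline mice. It was -0.43 for SCZ over Control, which shares libraries with both effects, and 0.06 for SCZ+c-MSST over Control+c-MSST. In SCZ against Control 11 members were lower at an unadjusted p under 0.05 and none higher, beside 7.43% and 6.09% of all genes. Sgk1, a kinase that corticosteroids induce, had 131, 131, 135 and 124 CPM in SCZ+c-MSST, against 116, 62.4, 66.5 and 66.7 CPM in SCZ. It had 101, 69.1, 114, 61.6 and 94.3 CPM in Control+c-MSST, against 90.5 to 148 CPM (median 117) in Control. The lowest values were those of 3 SCZ and 2 Control+c-MSST libraries, so both effects entered the interaction of 1.15 (SE 0.28, adjusted p = 0.386), with 0.74 (SE 0.22) in MK-801 mice and -0.41 (SE 0.18) in saline mice.

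Map3k6, a MAP kinase kinase kinase, had 6.67, 6.62, 6.96 and 8.49 CPM in SCZ+c-MSST, against 4.47, 1.89, 2.96 and 3.45 CPM in SCZ. Its saline groups overlapped at 4.75 to 6.92 CPM in Control+c-MSST and 4.19 to 7.28 CPM in Control, and its interaction was 1.12 (SE 0.29). The clock gene Per1, named after its values were seen, had 139 to 167 CPM in SCZ+c-MSST, against 106 to 115 CPM in SCZ, and its interaction was 0.43 (SE 0.14). Klf9 and Zbtb16, both transcription factors, had interactions of 0.26 (SE 0.10) and 0.19 (SE 0.35). Fkbp5, a co-chaperone that corticosteroids induce strongly in many tissues, had 0.03 (SE 0.36). Tsc22d3 had -1.10 (SE 0.69). In bulk tissue such as this, fewer cells of a type and less RNA per cell cannot be told apart.

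Promoter letters are shown for 5 of the named genes with a positive interaction, chosen because a search found a DNA element of the CREB or glucocorticoid receptor pathway in them. Dusp1, Btg2 and Sgk1 stand on the lists above, and Maff and Arl4d on neither. The windows are the 250 bases before an annotated transcript start, from RefSeq on GRCm38.p6, and 17 of the 21 named genes with a positive interaction at an unadjusted p under 0.05 had one. In the lines below, capitals mark the cAMP response element TGACGTCA, which CREB binds, or, for Sgk1, the palindromic glucocorticoid response element, AGAACA and TGTTCT with any 3 bases between them. Both strands were searched, and each element reads the same on both.
Maff (chr15:79347270-79347519, plus strand): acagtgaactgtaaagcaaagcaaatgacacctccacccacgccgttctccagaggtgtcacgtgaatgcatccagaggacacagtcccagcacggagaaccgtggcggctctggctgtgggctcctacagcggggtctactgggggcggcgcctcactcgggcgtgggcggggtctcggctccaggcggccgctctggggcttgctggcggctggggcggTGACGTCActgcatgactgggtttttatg
Btg2 (chr1:134079156-134079405, minus strand): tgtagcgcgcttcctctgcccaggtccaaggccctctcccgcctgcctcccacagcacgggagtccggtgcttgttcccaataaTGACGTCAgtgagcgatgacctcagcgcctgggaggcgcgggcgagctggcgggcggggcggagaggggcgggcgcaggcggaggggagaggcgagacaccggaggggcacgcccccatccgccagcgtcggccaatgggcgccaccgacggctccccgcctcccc
Arl4d (chr11:101665291-101665540, plus strand): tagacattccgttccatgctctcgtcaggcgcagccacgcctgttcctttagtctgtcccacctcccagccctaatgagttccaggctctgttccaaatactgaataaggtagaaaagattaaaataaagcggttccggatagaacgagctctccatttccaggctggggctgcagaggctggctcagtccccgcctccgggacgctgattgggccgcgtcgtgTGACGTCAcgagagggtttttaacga
Sgk1 (chr10:21993640-21993889, plus strand): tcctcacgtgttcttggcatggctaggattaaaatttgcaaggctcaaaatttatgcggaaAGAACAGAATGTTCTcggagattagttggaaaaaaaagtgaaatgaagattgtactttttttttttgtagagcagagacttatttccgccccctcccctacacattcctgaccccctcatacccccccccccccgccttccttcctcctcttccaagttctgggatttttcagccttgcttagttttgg
Dusp1, 30 bases around its element (within chr17:26508473-26508722, minus strand): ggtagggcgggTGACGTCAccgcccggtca

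The cAMP response element began 29 bases before the start in Maff, 166 in Btg2, 26 in Arl4d and 143 in Dusp1, and the glucocorticoid element 189 bases before the start in Sgk1. The cAMP element was in 4 of the 17 genes with a window and in 1 (Flt1) of the 21 such genes with a negative interaction, beside 478 of 27025 genes in all (1.77%). The glucocorticoid element was in 1 of the 17 and in none of the 21, beside 3 of 27025 genes (0.0111%). These 2 elements were kept out of 12 searched, after their matches were seen, so the shares describe the letters and say nothing of binding. The 27025 genes are all those with a window, whether or not expressed in this tissue. They had 32851 windows, and the 17 genes had 25, so the 2 shares are not like for like. Of the elements not kept, the E-box CACGTG was in 5 of the 17 and 2 of the 21 genes (6.86% of all genes). The shorter element TGACG was in 12 of the 17 and 10 of the 21 genes (19.8% of all genes) and holds part of the full one, and the AP-1 site TGACTCA in none of the 17 and 2 of the 21 (5.16% of all).

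The smallest p-values among negative interactions belonged to Hes5, Id3 and Zfp366. Hes5, a repressor that Notch switches on in neural progenitors and astrocytes, had 4.56, 3.60, 4.00 and 3.37 CPM in SCZ+c-MSST, against 6.54, 7.67, 8.60 and 10.1 CPM in SCZ. It had 5.67, 7.73, 3.84, 8.43 and 6.53 CPM in Control+c-MSST, against 2.7 to 5.98 CPM (median 3.77) in Control. SCZ was above both SCZ+c-MSST and Control without overlap, and the saline groups overlapped. The 2 effects were -1.08 (SE 0.25) in MK-801 mice and 0.70 (SE 0.21) in saline mice, and the interaction was -1.78 (SE 0.33, adjusted p = 0.242).

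Id3, an inhibitor of helix-loop-helix factors induced by BMP, had 4.26, 4.12, 5.90 and 4.68 CPM in SCZ+c-MSST, against 6.39, 8.86, 8.83 and 9.98 CPM in SCZ. It had 6.31, 6.66, 5.26, 7.88 and 7.76 CPM in Control+c-MSST, against 4.45 to 6.25 CPM (median 5.58) in Control. As for Hes5, SCZ+c-MSST was wholly below SCZ, and the interaction was -1.16 (SE 0.21, adjusted p = 0.242). Zfp366, a zinc finger protein, had 3.71 to 5.59 CPM in SCZ+c-MSST, against 6.75 to 9.18 CPM in SCZ. It had 6.78 to 11.1 CPM in Control+c-MSST, against 3.78 to 7.39 CPM in Control, so its 2 effects were near equal in size and opposite, at -0.79 (SE 0.21) in MK-801 mice and 0.66 (SE 0.18) in saline mice.

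Hspb1, a small heat shock protein of stressed glia and vessels, had 1.85, 1.95, 2.02 and 1.39 CPM in SCZ+c-MSST, against 2.41, 2.35, 2.50 and 2.82 CPM in SCZ. It had 2.81, 3.65, 2.89, 2.53 and 3.34 CPM in Control+c-MSST, against 1.48 to 2.52 CPM (median 1.91) in Control. Its groups did not overlap in either kind of mouse and lay in opposite order, below SCZ in SCZ+c-MSST and above Control in Control+c-MSST. The interaction of Hspb1 was -1.10 (SE 0.24, adjusted p = 0.365). Of 16 heat shock genes tested, 1 was higher and 2 lower at an unadjusted p under 0.05, beside 3.9% and 3.39% of all genes. Their median was 0.02.

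Sdhaf4, an assembly factor of succinate dehydrogenase, had an interaction of -1.14 (SE 0.24), with 1.67 to 3.05 CPM in SCZ+c-MSST and 3.34 to 3.76 CPM in SCZ, against 3.16 to 4.25 CPM in Control+c-MSST and 1.94 to 3.28 CPM in Control. The zinc finger genes Zfp658 and Zscan29 and the RNA-binding gene Mex3b had -0.60, -0.48 and -0.73, and in all 3 the SCZ+c-MSST libraries were below the SCZ libraries. The effect stood in saline mice for the kinesin Kif26a (0.49, SE 0.08, adjusted p = 0.0225) and the membrane protein Tmem64 (0.28, SE 0.06, adjusted p = 0.0496), with interactions of -0.52 and -0.37. For both, SCZ+c-MSST and SCZ overlapped.

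**Figure D3:**
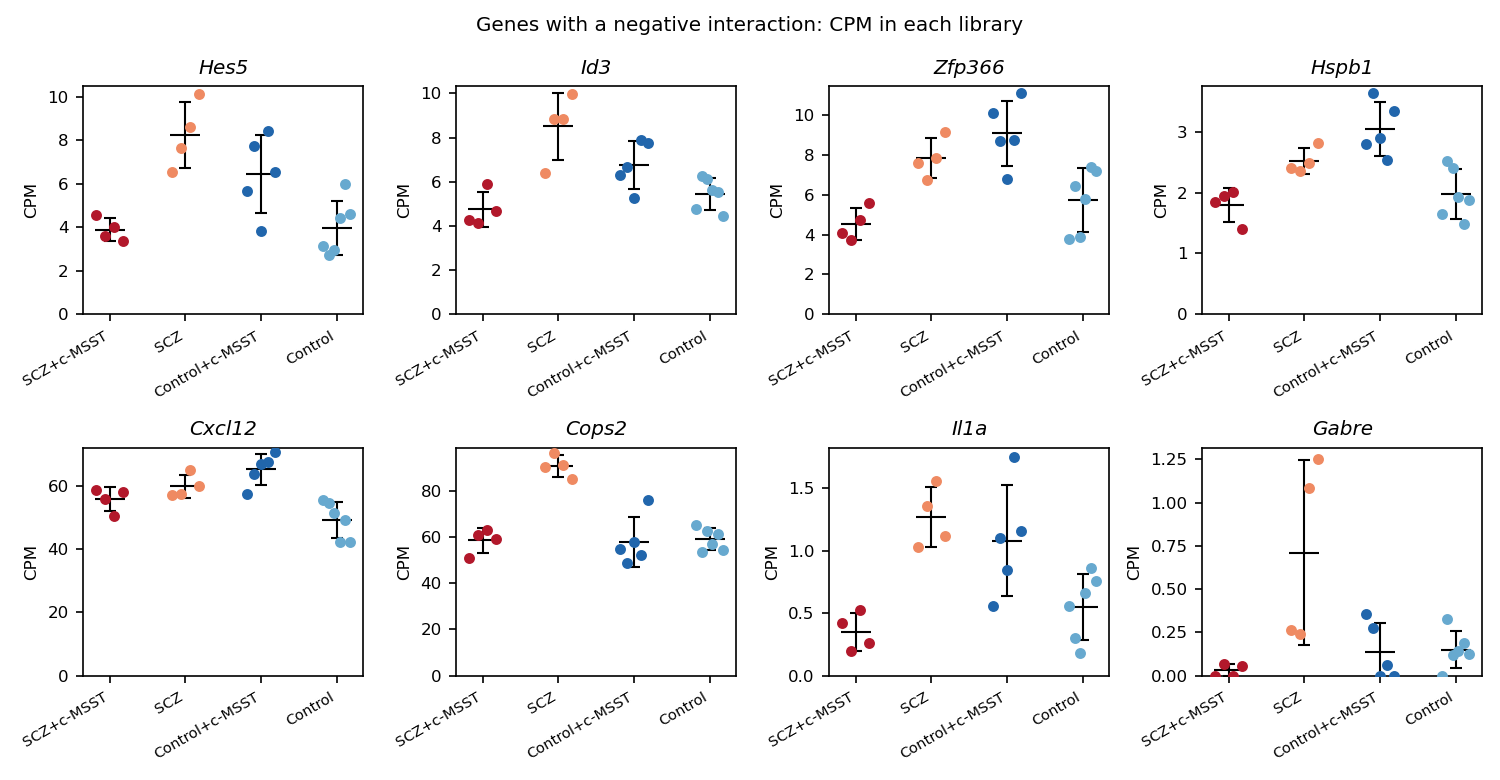
CPM of 8 genes with a negative interaction in each of the 19 libraries, by group, with the mean (long bar) and SD (whiskers). SCZ is the high group for Cops2 and Gabre, while Hes5, Hspb1 and Il1a are high in both SCZ and Control+c-MSST, and Cxcl12 is lowest in Control.

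Cytokines had members in both directions. Of 12 tested, 3 were lower (Il1a, Cxcl12 and Il34) and 2 higher (Cxcl10 and Il33, named after their values were seen) at an unadjusted p under 0.05. The shares of all genes were 3.39% lower and 3.9% higher. The median of the list was -0.20, and Il6, Tnf, Ccl2, Ccl4 and Cxcl1 had too few counts to be tested. Il1a, an alarm cytokine of microglia, had 0.418, 0.193, 0.523 and 0.257 CPM in SCZ+c-MSST, against 1.03, 1.36, 1.56 and 1.12 CPM in SCZ. It had 0.555 to 1.75 CPM (median 1.10) in Control+c-MSST, against 0.179 to 0.859 CPM (median 0.610) in Control. These rest on 14 to 35 counts in SCZ+c-MSST and 75 to 115 in SCZ. The interaction of Il1a was -2.83 (SE 0.59, adjusted p = 0.347).

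Cxcl12, a chemokine of meninges and vessels that guides interneurons and immune cells, had 58.8, 55.8, 50.6 and 58.1 CPM in SCZ+c-MSST, against 57.1, 57.6, 64.9 and 60.0 CPM in SCZ. It had 57.6, 63.7, 66.9, 67.5 and 70.7 CPM in Control+c-MSST, against 42.2 to 55.6 CPM (median 50.3) in Control. Control was the low group, with no overlap with Control+c-MSST or with SCZ, while SCZ+c-MSST and SCZ overlapped. Control+c-MSST over Control had a fold change of 0.41 (SE 0.07, adjusted p = 0.0335) that passed in that comparison, while the effect in MK-801 mice was -0.10 (SE 0.09) and the interaction -0.51 (SE 0.12, adjusted p = 0.365). Il34, a growth factor for microglia, had an interaction of -0.30 (SE 0.13). Cxcl10 had 3.65 with a wide error (SE 1.35) and Il33 0.31 (SE 0.13).

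Endothelial markers were mostly negative, 11 of 14 tested, with 4 lower at an unadjusted p under 0.05 against 3.39% of all genes and a median of -0.25. Flt1, a VEGF receptor, had 78.5, 96.9, 85.5 and 118 CPM in SCZ+c-MSST, against 105, 100, 95.9 and 107 CPM in SCZ. It had 95.6 to 120 CPM in Control+c-MSST, wholly above 74.7 to 94.2 CPM in Control, and its interaction was -0.39 (SE 0.13, adjusted p = 0.557). The angiopoietin receptor genes Tie1 and Tek had -0.43 (SE 0.14) and -0.27 (SE 0.10), and Slco1a4, an anion transporter of the blood-brain barrier, -0.49 (SE 0.17). Slc2a1, the barrier's glucose transporter, had 0.16 (SE 0.13), and Pecam1 and Cdh5, which define endothelium, had -0.00 (SE 0.11) and 0.09 (SE 0.17). Rgs5, a pericyte marker named after its values were seen, had -0.35 (SE 0.11), and 2 of 10 pericyte and smooth muscle markers were lower at that level. The summed level of the 14 endothelial markers was 429 to 514 CPM in SCZ+c-MSST, 451 to 497 CPM in SCZ, 457 to 525 CPM in Control+c-MSST and 428 to 453 CPM in Control. The summed haemoglobin level given above was higher in SCZ+c-MSST than in all other groups. The haemoglobin score, a mean of centred log2 levels over the genes, is another measure, and it overlapped between all groups. It ran from -0.64 to 1.67 in SCZ+c-MSST, -0.75 to 0.67 in SCZ, -0.83 to 0.94 in Control+c-MSST and -0.95 to 0.65 in Control. With this score as a covariate, an alternative chosen after seeing the data, 4 endothelial markers were lower at that level. A fit with the summed level as a covariate was not tested.

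The COP9 signalosome, which removes the NEDD8 tag from cullin ubiquitin ligases, had a median of -0.13. At an unadjusted p under 0.05, 5 of 9 subunits were lower, beside 3.39% of all genes. Of these, Cops7a and Gps1 were only just under it, at an unadjusted edgeR p of 0.0424 and 0.0455. The list was chosen with earlier results of these data known, and Cops2 also stands among the negative genes of smallest p. The share is therefore a description and no independent test. At an unadjusted p under 0.05, 1 subunit was lower and none higher in SCZ+c-MSST against SCZ, beside 3.7% and 3.86% of all genes. In Control+c-MSST against Control 4 were higher and none lower, beside 7.86% and 8.7% of all genes. Cops2 had the largest interaction of the named subunits. It had 50.9, 60.6, 63.0 and 59.2 CPM in SCZ+c-MSST, against 90.3, 96.2, 91.0 and 84.8 CPM in SCZ. It had 54.9, 48.5, 57.6, 51.9 and 75.7 CPM in Control+c-MSST, against 53.5 to 65.0 CPM (median 59.2) in Control. The SCZ libraries stood alone above all others, and the interaction was -0.60 (SE 0.14, adjusted p = 0.365) with -0.63 (SE 0.11, adjusted p = 0.0973) in MK-801 mice and -0.03 (SE 0.09) in saline mice. The subunits Cops8, Cops7a and Gps1 had -0.21 (SE 0.07), -0.17 (SE 0.08) and -0.13 (SE 0.06), and the catalytic subunit Cops5 0.11 (SE 0.21). The count of subunits was between 2 and 4 with any 1 library left out, with 2 for SCZ+c-MSST replicate 4, SCZ replicate 1 and Control replicates 1, 2 and 3, and it was 3 with DESeq2's size factors.

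Gabre encodes the GABA-A receptor's epsilon subunit, which the series title names, and is annotated on chromosome X from 72256926 to 72274828, minus strand (RefSeq, GRCm38.p6). It had 0, 0.0691, 0 and 0.0542 CPM in SCZ+c-MSST, against 0.261, 0.241, 1.09 and 1.25 CPM in SCZ. It had 0.353, 0.275, 0, 0.0592 and 0 CPM in Control+c-MSST, against 0 to 0.327 CPM (median 0.131) in Control. SCZ replicates 3 and 5 were above all other libraries, and the saline groups overlapped with zeros in both. The Gabre interaction was -4.27 (SE 1.58, edgeR adjusted p = 0.605), and it depends on the prior count because libraries at 0 enter it. The exact permutation test of the same contrast on log2(CPM + 0.1), exchanging c-MSST labels within each kind of mouse, gave a difference of -2.15 (two-sided p = 0.0644, 32340 arrangements), and with a pseudocount of 0.5 a difference of -1.03 (p = 0.0488). Its null is no effect of c-MSST in either kind of mouse, not equal effects in both, so its p does not by itself test the interaction. With the septal score as a covariate the edgeR value was -3.19. Zic1, the septal marker, was high in SCZ replicates 2, 3 and 5, and the part of neighbouring tissue in the Gabre values was not tested further.

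The other GABA-A subunits had smaller interactions than Gabre. Of 16 tested, 7 were positive and Gabre alone had an unadjusted p under 0.05, beside 7.29% of all genes. Gabrb2, a beta subunit, had an interaction of -0.19 (SE 0.12), and Gabrq, the theta subunit, -0.49 (SE 0.68). Gabra3 had 0.64 (SE 0.59). The count filter removed Gabra6, Gabrp and Gabrr3.

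**Figure D4:**
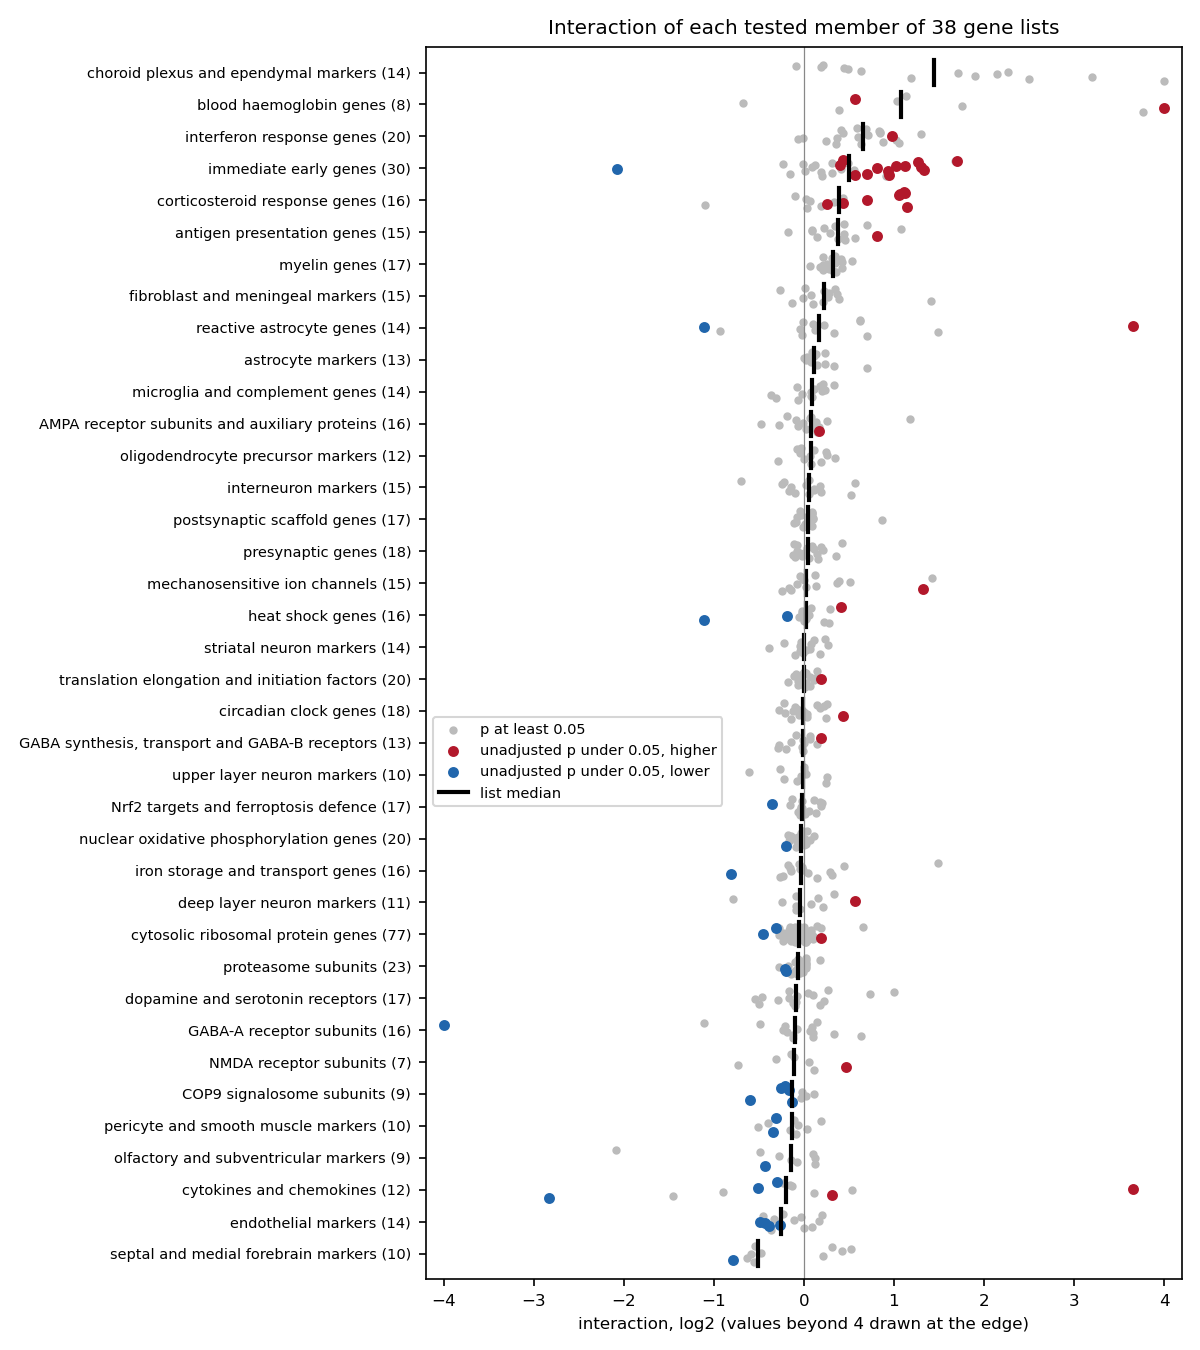
Interaction (log2) of each tested member of 38 gene lists, 1 row per list with the number tested, ordered by the list's median (black bar), in red (positive) and blue (negative) at an unadjusted p under 0.05, with values beyond 4 drawn at the edge. Immediate early and corticosteroid response genes hold the most red points, and endothelial markers and COP9 subunits the most blue ones for their size. The choroid plexus and haemoglobin rows have the highest medians, 1.45 and 1.08. No choroid plexus point is coloured, while 2 of 8 haemoglobin points are red (25%, beside 3.9% of all genes).

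Transmitter receptors and synaptic genes had few members at that level. Of 18 presynaptic, 17 postsynaptic scaffold and 17 dopamine and serotonin receptor genes none had an unadjusted p under 0.05, and of 7 NMDA and 16 AMPA receptor genes 1 each was higher, beside 3.9% of all genes. Translation factors (median -0.00), circadian clock genes (-0.01), nuclear oxidative phosphorylation genes (-0.03) and cytosolic ribosomal protein genes (-0.05) centred near 0. Iron storage and transport genes, of interest because the particle holds iron, had a median of -0.03 with 1 of 16 lower, beside 3.39% of all genes. Mechanosensitive ion channels had 0.02 with 1 of 15 higher. Choroid plexus and ependymal markers had the highest median, 1.45, with no member at an unadjusted p under 0.05. Their median log2 fold change was -2.22 for c-MSST in saline mice and -0.72 in MK-801 mice. At that level 12 of 14 were lower in saline mice and 2 in MK-801 mice, beside 8.7% and 3.7% of all genes. Ttr stood at 1607 CPM in Control replicate 2 and 150 CPM in Control replicate 3.

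Leaving out any 1 library kept the sign of the interaction of all 24 genes of smallest p. These genes were picked for a small p in the same libraries, which favours a kept sign, so this is no independent support. Among the genes of large interaction the ranges were Foxf1 2.80 to 3.48, Maff 2.44 to 2.95 and Ccn1 2.05 to 2.55. For Hes5 the range was -1.94 to -1.67. Without SCZ replicate 1, the smallest adjusted p over all genes was 0.0593, for Arrdc2, and without SCZ+c-MSST replicate 3 it was 0.584, for Hes5.

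**Figure D5:**
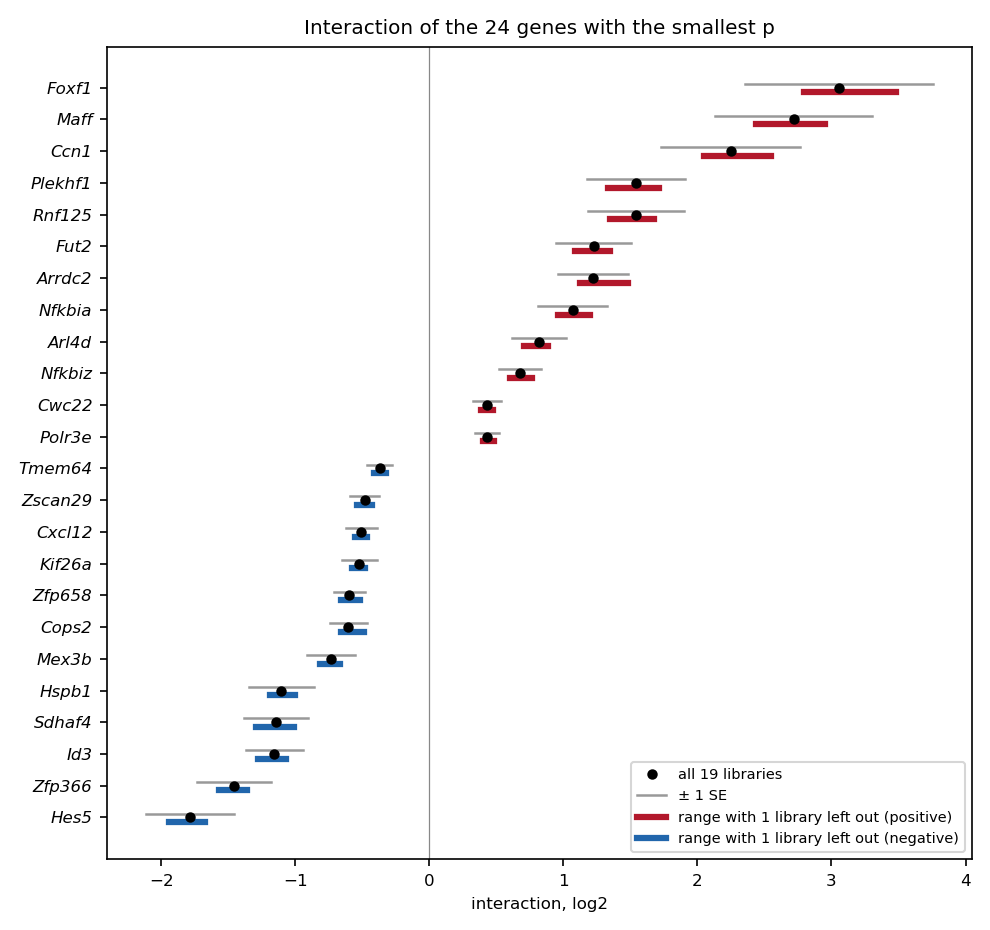
Interaction (log2, horizontal axis) of the 24 genes with the smallest p (vertical axis) with all 19 libraries (black points), its standard error (grey lines) and the range when each library was left out in turn (coloured bars). No coloured bar crosses 0, which the choice of genes by small p in the same libraries favours.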

How the data were processed

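RNA was measured by stranded total RNA sequencing in 19 libraries. For 20938 genes the authors deposited estimated counts in one table and FPKM values in another. The build mm10 and the tools StringTie 1.3.5, Picard 2.18.29, STAR 2.7.7a and fastp 0.19.5 were used per the submitters' processing notes. Their roles, and any use of strand in counting, are not given in the sources used here. These deposited estimated counts were whole numbers, so none was rounded.

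From these counts, genes too low for edgeR's filterByExpr over the 4 groups were left out, leaving 16417, and libraries were scaled by TMM. edgeR 4.0.16 (R 4.3.3) fitted 1 coefficient per group by robust quasi-likelihood, and the interaction was a contrast of the 4. The design had foreseen counts, and the same test was used for estimated counts. Named genes are Gabre, the 12 genes of smallest p in each direction among those with a mean of at least 1 CPM and an established name, and, from each list with at least 3 and at least 0.25 of its tested members at an unadjusted p under 0.05 in 1 direction, the 2 of highest mean CPM and the 4 of smallest p. A gene named otherwise is said to be chosen after its values were seen, or stands as an example of its list (GABA-A subunits, markers and subunits of a described list). The members and lists were chosen with earlier results of these data known. Alternatives used DESeq2 1.42.0, limma 3.58.1 on log2(FPKM + 1) and log2(FPKM + 0.1), sva 3.50.0, other filters and scalings, marker scores as covariates, a replicate block and each library left out. The test script was tested on simulated data. Same-numbered libraries of different groups did not deviate together (19 pairs, correlations -0.26 to 0.27, median -0.036), so the numbers were not taken to pair samples. Promoter windows and positions came from RefSeq on GRCm38.p6. Some genes are not reported here.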

Additional observations from a re-analysis of the deposited data

Results flagged for a closer look

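Of 204 groups of named genes checked, 10 held a library set apart from the rest of its group, and chance alone sets apart about 1 group in 20. SCZ replicate 1 was the highest SCZ library for both Arrdc2, at 11.4 CPM with the next at 6.67 CPM, and Sgk1, at 116 CPM with the next at 66.7 CPM. Among SCZ+c-MSST libraries, replicate 4 was low for Nfkbiz (10.2 CPM, next 11.7 CPM) and replicate 3 for Kif26a (12.0 CPM, next 13.2 CPM). Cops8 was high in SCZ replicate 2 (66.0 CPM, next 62.0 CPM). In Control+c-MSST, Plekhf1 was low in replicate 6 (1.47 CPM, next 3.41 CPM) and Tie1 in replicate 4 (8.88 CPM, next 10.5 CPM). In Control, Tek was high in replicate 1 (25.7 CPM, next 22.7 CPM), Gps1 in replicate 5 (83.6 CPM, next 79.5 CPM) and Npas4 in replicate 7 (26.4 CPM, next 14.9 CPM).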

How the results depend on the processing

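The interaction had 0 called genes by edgeR in each setting run, with 2 exceptions: 1 gene (B2m, 1.03, adjusted p = 0.0476) without Control replicates 2 and 3, and 1 gene (Ankrd31, 8.13, adjusted p = 0.0471) without SCZ replicate 3. The range with 1 library left out was thus 0 to 1. DESeq2 called 40 genes, 27 higher and 13 lower. Of interaction genes at unadjusted p under 0.05, lower and higher, limma on log2(FPKM + 1) had 158 higher and 1660 lower genes and on log2(FPKM + 0.1) 165 higher and 1615 lower, with the median of all genes at -0.083 and -0.125, so the higher share was 8.69% and 9.27% against 53.5% by edgeR. With 1 library left out there were 502 to 766 higher and 459 to 661 lower genes. The replicate block gave 0 calls, 721 higher and 649 lower genes, and -4.33 (adjusted p = 0.595) for Gabre. The Gabre interaction ran from -4.97 to -3.60 with 1 library left out and from -4.66 to -0.13 in the other settings, and it was not tested with a minimum mean of 1 CPM. Its permutation difference was -1.03 (exact p = 0.0488) with a pseudocount of 0.5, and -2.47 to -1.80 (exact p from 0.0360 to 0.120) with 1 library left out, under 0.05 without Control+c-MSST replicate 4 or 7 or Control replicate 2. Homer1 turned to -0.0146 on log2(FPKM + 1) and -0.0148 on log2(FPKM + 0.1), and Zbtb16 to -0.17 without Control replicates 2 and 3. The cause was not tested. Gabre had 0 to 5 counts in SCZ+c-MSST libraries, so its fold changes rest on few reads.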

Other observations

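Interferon response genes and antigen presentation genes were mostly positive without many members at an unadjusted p under 0.05. Of 20 interferon genes 18 were positive with a median of 0.66, and 1 (Oas2, an enzyme that senses double-stranded RNA, 0.98) was at that level, beside 3.9% of all genes. The median log2 fold change of the interferon list was 0.03 for c-MSST in MK-801 mice and -0.57 for c-MSST in saline mice. With 1 library left out, its median interaction ran from 0.28 (without Control replicate 4) to 0.82 (without Control replicate 1). Its median in saline mice ran from -0.67 (without Control replicate 2) to -0.21 (without Control replicate 4). Of 15 antigen presentation genes 14 were positive with a median of 0.38. With 1 library left out, that median ran from 0.24 (without SCZ+c-MSST replicate 4) to 0.52 (without Control+c-MSST replicate 6). B2m, the light chain of class I molecules and named after its values were seen, had an interaction of 0.81 (SE 0.24, edgeR adjusted p = 0.482), from 0.19 in MK-801 mice and -0.62 in saline mice.

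All 17 myelin genes had a positive interaction, with a median of 0.32 and none at an unadjusted p under 0.05. Their median fold change was -0.26 for c-MSST in MK-801 mice and -0.58 for c-MSST in saline mice, where 16 of the 17 were lower at an unadjusted p under 0.05, beside 8.7% of all genes. The summed level was 3249 to 4302 CPM in SCZ+c-MSST, 4084 to 4768 CPM in SCZ, 1196 to 3537 CPM in Control+c-MSST and 2882 to 5023 CPM in Control. Control+c-MSST replicate 6 was the library at 1196 CPM, in a group with a median of 3045 CPM. Without it 16 genes were positive, the median interaction was 0.13 and the median fold change in saline mice was -0.37, with 16 genes still lower at that level. Without Control replicate 2, 8 genes were lower in saline mice and the median interaction was 0.24.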
